A study of Mus musculus with 13 samples.

Results

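Collagens are a family of triple-helical proteins of the extracellular matrix, and the genes described here are those of every collagen type except type IV, the network collagen of basement membranes. They were taken as all symbols of the count table made of Col, a type number, the letter a and a chain number, leaving out those of type IV, which gave 38 of the 32544 symbols. They were read in lung of wild-type (WT) C57BL/6J male mice, bought at 7 weeks of age and kept for 5 days at 21% oxygen (Normoxia, 7 libraries) or 80% oxygen (Hyperoxia, 6 libraries). The lungs were perfused and frozen whole, so that each library holds the RNA of all lung cell types together, and a change in the number of cells of a type cannot be told apart from a change in RNA per cell. The libraries were made by Quant-seq, which reads the 3′ end of polyadenylated RNA. The labels name the libraries as separate samples without tying each to an animal, so the p-values measure the spread between these samples, which may in part be technical.

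Fibrillar collagens, types I, II, III, V and XI in the classes used here, assemble into the cable-like fibrils that give the alveolar septa, airways and vessels their tensile strength. Type V chains nucleate these fibrils and limit their diameter, fibril-associated collagens decorate the fibril surface, and type VI forms beaded microfilaments between fibrils and cells. Types XV and XVIII lie in the basement membrane zone, and type XVIII is known for endostatin, the anti-angiogenic fragment released from its C-terminal end. The remaining types include short-chain network, anchoring fibril and transmembrane collagens, and some that other schemes count as fibrillar or fibril-associated. In the lung, fibroblasts, smooth muscle cells and pericytes make most of the interstitial collagen, while several of the minor types come from endothelial or epithelial cells.

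Total counts lay between 1607111 and 4540288 per library, and a count of 3, used as the floor, equals 0.661 to 1.87 CPM depending on the library. CPM is the count scaled to the library's total, and levels below are also adjusted for differences in composition between libraries (TMM). Floors cover counting error only. Hyperoxia 1 stood apart from the other 12 libraries, with correlations of log expression of 0.732 to 0.841 against 0.860 to 0.969 among the others. Over the 19 collagen genes abundant enough to be tested, Hyperoxia 1 had the highest value of all hyperoxic libraries in 5 genes and the lowest in 8. The library names begin either with a letter from B to M (5 normoxic and 3 hyperoxic libraries) or with one from O to S (2 and 3), and the labels do not say what the letters mean. Surfactant protein C, the defining transcript of alveolar type 2 cells, was present in every library, at 5066 to 13578 CPM in normoxia and 32.7 to 2915 CPM in hyperoxia, where Hyperoxia 1 set the lower end and the others began at 666 CPM.

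Hyperoxic lung held more RNA of 5 of these collagens and less of 2. Col18a1, the chain of type XVIII, rose 5.35-fold, Col5a2 2.40-fold, Col8a1 2.19-fold, Col5a1 1.598-fold and Col3a1 1.49-fold, whereas Col26a1 fell to 0.441 and Col27a1 to 0.624 of the normoxic level. The other 12 tested genes, the type I and type VI chains among them, did not pass an adjusted p of 0.05 in the quasi-likelihood test of edgeR. The 7 genes past it are 36.8% of the 19 tested, beside 22.6% of all 12496 genes tested. By direction, 26.3% of the tested collagens were higher, beside 11.8% of all genes, and 10.5% were lower, beside 10.8%. Every hyperoxic library lay above every normoxic one in 3 collagens (15.8%, beside 5.6% of all genes), and below in 1 (5.26%, beside 5.23%). The median log2 fold change of the tested collagens was 0.12, with 10 of 19 above 0, against a median of -0.03 and 47.8% above 0 over all genes. These medians describe only the genes that passed the filter on low counts.

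**Figure D1:**
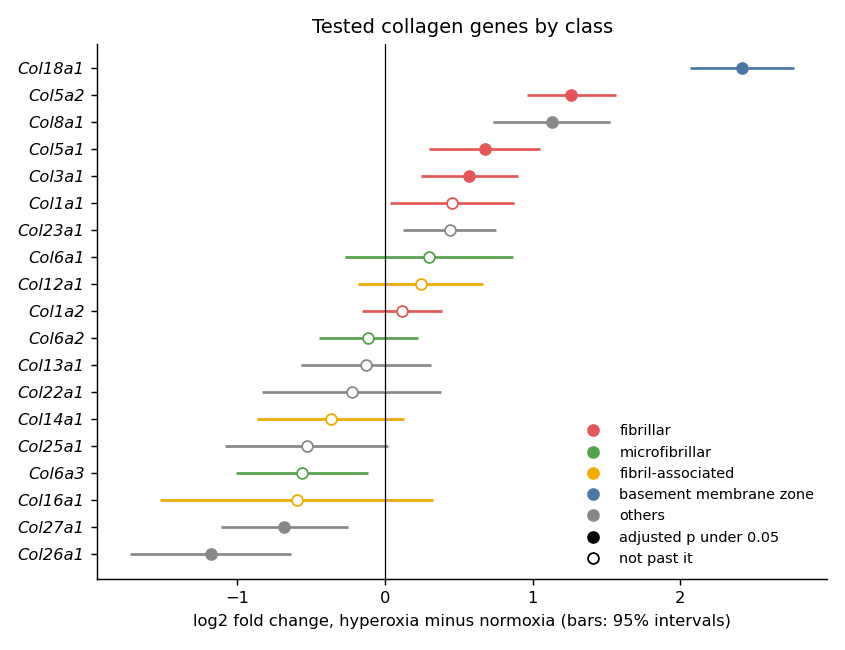
Log2 fold change (hyperoxia minus normoxia, horizontal axis) of the 19 tested collagen genes, coloured by class. Points are edgeR estimates, bars are 95% intervals, and filled points passed an adjusted p of 0.05. Col18a1 stands at 2.42, all 5 fibrillar genes lie above 0, and Col26a1 at -1.18 is the lowest.

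Sequences just before the transcription start are shown for the genes past the threshold that have an entry among the RefSeq promoter windows (GRCm38.p6), since these are the collagens that changed. Each line gives the 250 bases before an annotated start, 5′ to 3′ on the strand of the gene. Capitals mark the letters CCAAT (read as ATTGG on the other strand), TATAAA (read there as TTTATA) and GGGCGG (read there as CCGCCC). Col18a1 is shown at the starts that have a RefSeq window, on the minus strand at chr10:77166531-77166780 and chr10:77113706-77113955. Col8a1 is at chr16:57754738-57754987 on the minus strand, and Col3a1, Col5a1 and Col27a1 are on the plus strand at chr1:45311288-45311537, chr2:27886175-27886424 and chr4:63215162-63215411.
Col18a1 start 1: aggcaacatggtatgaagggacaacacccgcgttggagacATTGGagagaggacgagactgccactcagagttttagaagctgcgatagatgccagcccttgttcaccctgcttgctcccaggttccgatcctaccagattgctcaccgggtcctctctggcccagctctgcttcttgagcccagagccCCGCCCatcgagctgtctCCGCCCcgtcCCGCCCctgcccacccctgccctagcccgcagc
Col18a1 start 2: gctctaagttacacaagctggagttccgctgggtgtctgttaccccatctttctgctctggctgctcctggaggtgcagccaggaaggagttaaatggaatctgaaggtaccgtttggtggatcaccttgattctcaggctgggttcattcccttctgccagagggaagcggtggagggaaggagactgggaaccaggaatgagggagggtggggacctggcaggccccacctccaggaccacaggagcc
Col8a1: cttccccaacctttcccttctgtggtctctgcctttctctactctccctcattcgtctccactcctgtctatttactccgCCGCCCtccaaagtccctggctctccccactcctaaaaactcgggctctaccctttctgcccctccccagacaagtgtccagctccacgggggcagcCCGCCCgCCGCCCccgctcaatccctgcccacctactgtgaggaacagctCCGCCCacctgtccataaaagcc
Col3a1: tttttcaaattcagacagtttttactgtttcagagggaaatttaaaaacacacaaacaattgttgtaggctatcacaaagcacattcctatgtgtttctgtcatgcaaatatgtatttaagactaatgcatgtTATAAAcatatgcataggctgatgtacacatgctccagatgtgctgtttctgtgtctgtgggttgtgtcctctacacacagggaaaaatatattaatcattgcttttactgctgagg
Col5a1: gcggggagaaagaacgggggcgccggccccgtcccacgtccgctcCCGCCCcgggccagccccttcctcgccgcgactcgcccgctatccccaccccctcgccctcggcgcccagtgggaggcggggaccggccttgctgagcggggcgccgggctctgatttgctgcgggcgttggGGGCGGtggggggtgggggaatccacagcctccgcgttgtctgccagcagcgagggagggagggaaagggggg
Col27a1: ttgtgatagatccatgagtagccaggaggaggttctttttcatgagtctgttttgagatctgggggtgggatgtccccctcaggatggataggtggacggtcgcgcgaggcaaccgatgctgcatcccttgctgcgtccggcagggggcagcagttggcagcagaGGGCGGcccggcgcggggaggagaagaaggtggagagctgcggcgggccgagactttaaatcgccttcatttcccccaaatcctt

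The upstream start of Col18a1 carries 3 CCGCCC and 1 ATTGG, whereas the second start shown carries none of the motifs. The Col8a1 stretch holds 4 CCGCCC, that of Col5a1 1 CCGCCC and 1 GGGCGG, that of Col27a1 1 GGGCGG, and that of Col3a1 a single TATAAA. Across the family, 30 of the 38 genes matched, with 33 windows of 300 bases (250 before and 50 after the start). GGGCGG was found on either strand in 19 of the 33 windows (57.6%), beside 35.7% of all 32851 windows. CCAAT was found in 10 (30.3%, beside 37.4%) and TATAAA in 5 (15.2%, beside 13.6%). The letters of GGGCGG are all G or C, and the GC content of the collagen windows ran from 37.7% in Col3a1 to 75.0% in Col5a1. The median over all windows was 52.7%, and what part GC content has in the share of GGGCGG was not tested. The motifs were searched on both strands, none of them contains another, and a match describes the sequence only.

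Of the basement membrane zone collagens, only Col18a1 was abundant enough to be tested, and its fold change was the largest of the 19 tested collagens. Its CPM in the normoxic libraries 1 to 7 was 18.3, 17.5, 14.4, 15.1, 21.4, 10.9 and 14.3, and in the hyperoxic libraries 1 to 6 it was 72.9, 106.6, 58.0, 87.2, 91.3 and 92.7. The groups were far apart, since even the lowest hyperoxic library, Hyperoxia 3, lay well above the highest normoxic one, Normoxia 5. The difference was 2.42 ± 0.18 on the log2 scale (SE, edgeR adjusted p = 2.99e-07), which ranked it 17 by p among the 12496 genes. It was 2.24 among the libraries named B to M and 2.84 among those named O to S, and past the threshold in both. Col18a1 lies on the minus strand of chr10:77052178-77166548 (GRCm38), and its last 8825 bases, chr10:77052178-77061002, overlap the folate carrier gene Slc19a1 on the opposite strand. Quant-seq reads fall at such 3′ ends, and whether the counting used strand is not given in the sources used here, so reads of the overlap cannot be assigned with certainty. Slc19a1 itself was listed at a mean of 1.47 CPM in normoxia and 2.25 CPM in hyperoxia and was too low to be tested. Col15a1, the other member of the class, had between 0 and 12 counts per library and was not tested.

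**Figure D2:**
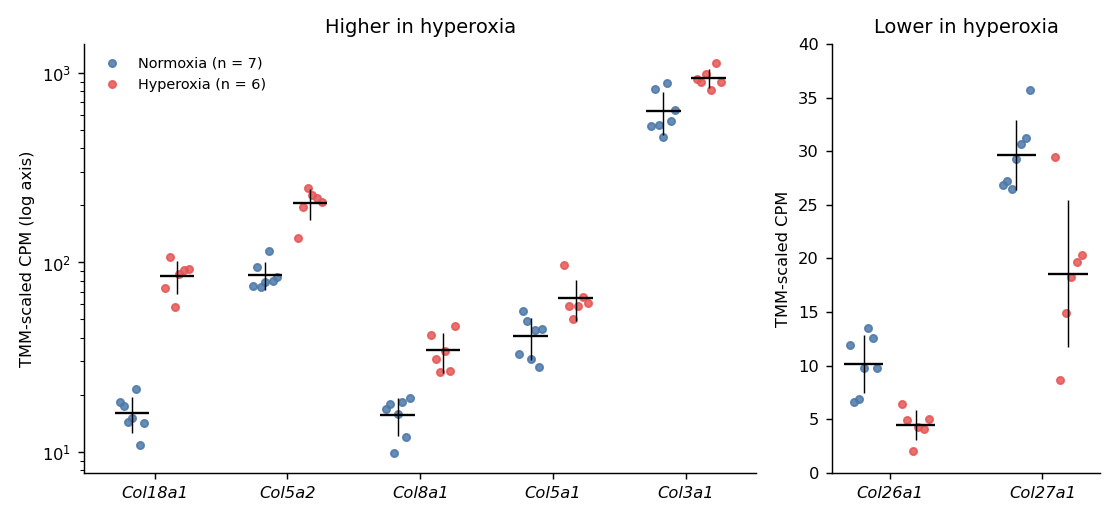
TMM-scaled CPM of the 7 collagen genes past an adjusted p of 0.05, with 1 point per library (blue, 7 normoxic; red, 6 hyperoxic). Horizontal lines are means and vertical lines 1 SD; the left axis is logarithmic and the right one is linear from 0. Col18a1, Col5a2 and Col8a1 do not overlap between the groups upwards, nor does Col26a1 downwards, while the other genes share part of their range.

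All 5 tested fibrillar genes had positive log2 fold changes, and the type V and type III chains passed the test. Col5a2, the α2 chain of type V, had a lowest, median and highest CPM of 74.6, 80.3 and 114.6 in normoxia and of 134.6, 214.4 and 247.0 in hyperoxia. Every hyperoxic library exceeded every normoxic one, with Hyperoxia 1 nearest to the normoxic range. The log2 fold change was 1.26 ± 0.15 (SE, edgeR adjusted p = 3.50e-05). Col5a1, the α1 chain that pairs with it in the type V trimer, had 28.2, 44.1 and 55.2 CPM in normoxia and 50.4, 60.0 and 96.5 CPM in hyperoxia. Here the groups met at the edge, because Hyperoxia 3 lay below Normoxia 2, and Hyperoxia 1 lay far above the other hyperoxic libraries. Col5a1 rose by 0.68 ± 0.19 (SE, edgeR adjusted p = 0.0181), and by 0.55 without Hyperoxia 1 (adjusted p = 0.0185).

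Col3a1 encodes type III collagen, the fibril-forming chain of compliant tissues such as vessel walls and alveolar septa. Its lowest, median and highest CPM were 460.2, 559.7 and 891 in normoxia and 812, 912 and 1123 in hyperoxia. Most hyperoxic libraries lay above the normoxic ones, except that Normoxia 2 and Normoxia 5 reached into the hyperoxic range. The rise was 0.57 ± 0.17 (SE, edgeR adjusted p = 0.0215). Among the libraries named B to M alone, Col3a1 was at 0.59 with an edgeR adjusted p of 0.174 and Col5a1 at 0.75 with 0.136, and among those named O to S they were at 0.64 (0.0304) and 0.76 (0.0344). Both genes were thus higher in each set, with only the O to S set past the threshold. Col3a1 and Col5a2 are neighbours on chromosome 1, at chr1:45311538-45349706 on the plus strand and chr1:45374321-45503282 on the minus strand (GRCm38), with their 3′ ends facing each other 24614 bases apart and 0 protein-coding genes between them.

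The type I chains, the main constituent of interstitial fibrils, did not pass the test. Col1a1 had 336, 459 and 716 CPM as its lowest, median and highest value in normoxia and 462, 665 and 1031 in hyperoxia. The groups overlapped in part, with 4 of the 7 normoxic libraries below every hyperoxic one, Hyperoxia 3 at the top and Normoxia 6 at the bottom. Its log2 fold change was 0.45 (95% interval 0.03 to 0.87, edgeR adjusted p = 0.146). The interval, which assumes a normal spread, leaves out 0, but the edgeR p before adjustment was 0.051. Col1a2, the α2 chain of the same trimer, had 718, 817 and 1031 CPM in normoxia and 699, 940.4 and 1048 in hyperoxia. It was close to level, at 0.12 (95% interval -0.16 to 0.39, edgeR adjusted p = 0.594). The other 4 fibrillar genes, Col2a1 of cartilage, Col11a1, Col11a2 and Col5a3, had too few counts, with at most 23 in any library.

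Summed over the class, fibrillar collagens made 2088 ± 408 CPM in normoxia and 2790.0 ± 278 CPM in hyperoxia (SD, n = 7 and 6), a ratio of 1.34. They supplied 84.2% of all counts of these collagens in normoxia and 85.9% in hyperoxia, so that the sum over all 38 genes, 2474 ± 432 against 3242 ± 259 CPM, mostly follows Col1a1, Col1a2 and Col3a1. Within that total, the basement membrane zone class went from 0.722% to 2.68% and the microfibrillar class from 5.28% to 3.74%, although the microfibrillar sum itself was 130.3 ± 28.7 CPM in normoxia and 121.0 ± 35.6 CPM in hyperoxia. Hyperoxia 1 had the lowest microfibrillar sum, 62.7 CPM. With single libraries left out, the log2 ratio of this sum ran from -0.19 to 0.026, so its direction was not steady. These sums are given as values without a test.

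**Figure D3:**
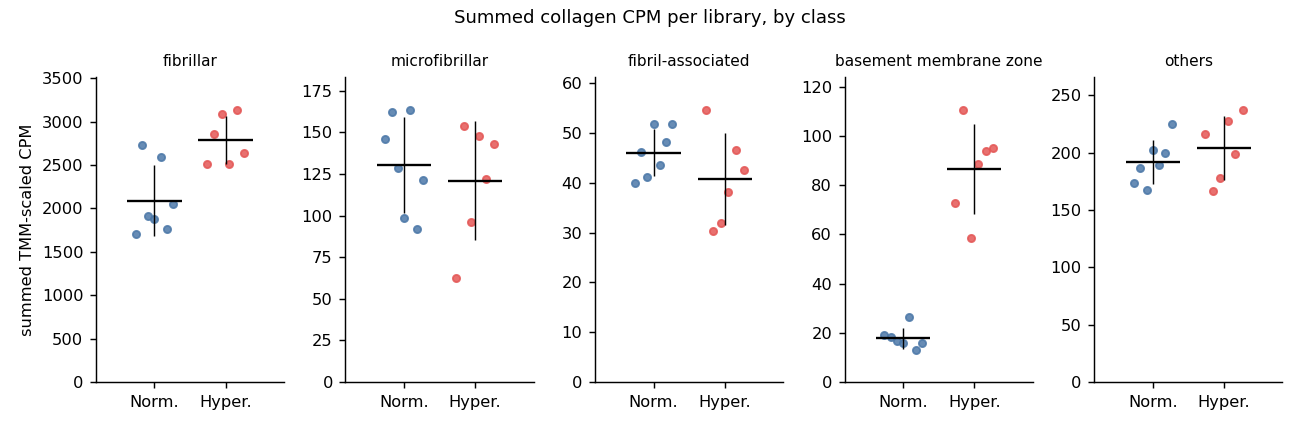
Summed TMM-scaled CPM of each collagen class, with 1 point per library (blue, 7 normoxic; red, 6 hyperoxic), lines for the mean and bars of 1 SD; every vertical axis starts at 0. The basement membrane zone sum, with means of 17.8 in normoxia and 86.7 in hyperoxia, is the one without overlap. The fibrillar sum has means of 2088 and 2790.0, and Normoxia 2 and Normoxia 5 lie inside its hyperoxic range.

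Ratios of counts within a library do not depend on the scaling between libraries, and they were read for pairs of the fibrillar genes. Col5a2 per Col1a2 was 0.0901 to 0.128 in normoxia and 0.192 to 0.322 in hyperoxia, without overlap. Col3a1 per Col1a2 had a mean of 0.756 ± 0.129 in normoxia and 1.07 ± 0.198 in hyperoxia (SD, n = 7 and 6). The hyperoxic ratios of Col3a1 began at 0.892, and only Normoxia 5, at 0.997, reached above that. Col3a1 per Col1a1, by contrast, overlapped over much of its range, at 1.32 ± 0.253 and 1.47 ± 0.336. Col1a1 per Col1a2 spread more widely, at 0.586 ± 0.110 and 0.781 ± 0.317, and its hyperoxic libraries ran from 0.4599 in Hyperoxia 6 to 1.34 in Hyperoxia 3. For the type V partners, Col5a2 per Col5a1 was 2.20 ± 0.499 in normoxia and 3.38 ± 1.14 in hyperoxia, with Hyperoxia 1 at 1.39 below every normoxic library and the other 5 hyperoxic libraries, from 3.35 upwards, above all of them. The ratios were not tested.

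**Figure D4:**
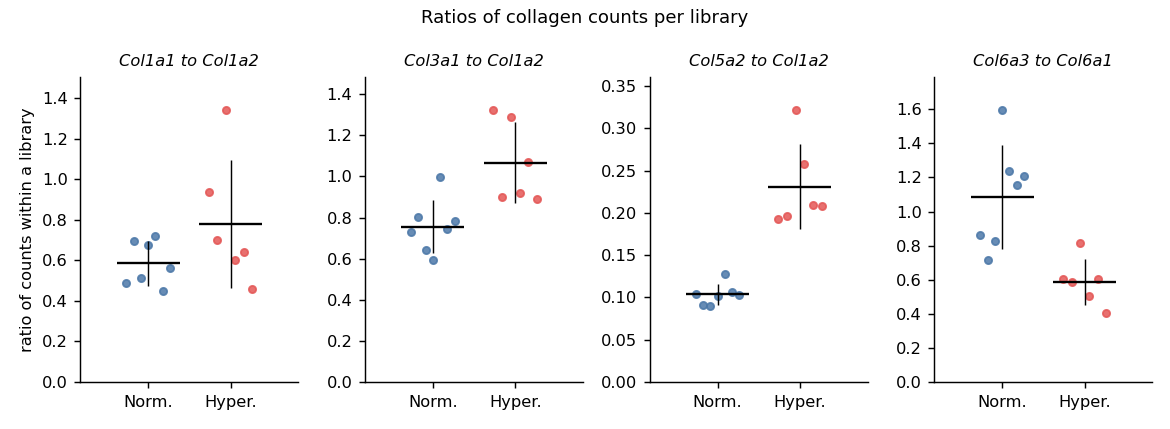
Ratio of the counts of a pair of collagen genes in each library (blue, 7 normoxic; red, 6 hyperoxic), with the mean and bars of 1 SD on axes that start at 0. Col5a2 per Col1a2 separates the groups, Col6a3 per Col6a1 is lower in hyperoxia with some overlap, and the type I pair overlaps.

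Type VI collagen, whose α1, α2 and α3 chains form a common trimer, showed no chain past the threshold. Col6a3, which carries the longest N-terminal region of the trimer, had 35.7, 44.6 and 66.8 CPM as its lowest, median and highest value in normoxia and 12.3, 32.2 and 43.5 in hyperoxia. Hyperoxia 1 was far the lowest, and Hyperoxia 2 reached the middle of the normoxic range. Its log2 fold change was -0.56 (95% interval -1.01 to -0.12, edgeR adjusted p = 0.0896), and -0.39 without Hyperoxia 1 (adjusted p = 0.0806). Col6a1 had 25.9, 50.4 and 65.7 CPM in normoxia and 20.4, 64.4 and 77.0 in hyperoxia, at 0.30 (95% interval -0.27 to 0.87, edgeR adjusted p = 0.500). It went different ways in the sets of libraries, at -0.17 among those named B to M (adjusted p = 0.814) and 1.01 among those named O to S (adjusted p = 0.0101), and the difference between the sets was not tested. Col6a2 was at -0.11 (95% interval -0.45 to 0.22).

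Ratios of the type VI chains were also read within each library. Col6a3 per Col6a1 was 1.09 ± 0.305 in normoxia and 0.588 ± 0.136 in hyperoxia (SD, n = 7 and 6), with only Hyperoxia 3, at 0.817, inside the normoxic range of 0.718 to 1.597, and this ratio was not tested. Col6a2 and Col6a1 lie on the same strand of chromosome 10, at chr10:76595762-76623630 and chr10:76708792-76726168, and Col18a1 follows 326009 bases further on with 1 protein-coding gene between. The other 3 type VI genes, Col6a4, Col6a5 and Col6a6, had at most 6 counts in any library.

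The fibril-associated collagens bind to the surface of type I fibrils, and none of the 3 passed the test. Col12a1, often found in tissue under mechanical load, was at 0.24 (95% interval -0.18 to 0.66, edgeR adjusted p = 0.463). Col14a1, a regulator of fibril growth, was at -0.37 (-0.86 to 0.13, adjusted p = 0.334), with Hyperoxia 1 at 40.7 CPM above every other library and the rest of the hyperoxic libraries between 12.8 and 23.4 CPM. Without Hyperoxia 1, Col14a1 was at -0.63 with an edgeR adjusted p of 0.0220. Col16a1, between 0 and 10.1 CPM, was at -0.60 (-1.52 to 0.32, adjusted p = 0.399). Their summed level was 46.1 ± 4.79 CPM in normoxia and 40.7 ± 9.23 CPM in hyperoxia.

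Among the remaining types, Col8a1 rose and Col26a1 and Col27a1 fell. Col8a1 encodes a short-chain network collagen made in vessel walls and beneath endothelium. Its lowest, median and highest CPM were 9.81, 16.8 and 19.3 in normoxia and 26.4, 32.6 and 46.4 in hyperoxia. Every hyperoxic library exceeded every normoxic one, with Hyperoxia 6 and Hyperoxia 1 highest. The rise of Col8a1 was 1.13 ± 0.20 (SE, edgeR adjusted p = 8.52e-04). Its partner chain Col8a2 had at most 10 counts in a library, with a mean of 1.91 CPM in normoxia and 0.877 CPM in hyperoxia, and was not tested.

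Col26a1, a secreted collagen with an EMI domain, was the collagen with the lowest fold change of those tested. It had 6.64, 9.81 and 13.5 CPM in normoxia and 2.08, 4.61 and 6.43 in hyperoxia. The groups just failed to touch, since Hyperoxia 1 lay only slightly below Normoxia 2. The log2 fold change was -1.18 ± 0.28 (SE, edgeR adjusted p = 0.00617), at -1.08 among the libraries named B to M (adjusted p = 0.170) and -1.32 among those named O to S (adjusted p = 0.0259).

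Col27a1 is counted among the fibrillar collagens in other schemes, and its homotrimers form thin fibrils in cartilage. Its CPM was 26.5, 29.3 and 35.7 in normoxia and 8.69, 19.0 and 29.5 in hyperoxia. The overlap came from Hyperoxia 1 alone, which lay inside the normoxic range, while the other 5 hyperoxic libraries lay below every normoxic one. Col27a1 fell by 0.68 ± 0.22 on the log2 scale (SE, edgeR adjusted p = 0.0344). It was at -0.83 without Hyperoxia 1 (adjusted p = 0.00392), and leaving out any other library raised the adjusted p above 0.05, to at most 0.0874. It was also at -0.62 among the libraries named B to M (adjusted p = 0.318) and at -0.79 among those named O to S (adjusted p = 0.0240).

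Transmembrane collagens, single-pass proteins whose ectodomains can be shed, had 3 tested members and none past the threshold. Col23a1 had 46.3, 67.2 and 80.1 CPM as its lowest, median and highest value in normoxia and 67.3, 88.3 and 105.6 in hyperoxia. Of the 6 hyperoxic libraries 4 lay above every normoxic one, with Hyperoxia 1 highest, and Hyperoxia 2 and Hyperoxia 3 lay inside the normoxic range. Its log2 fold change was 0.44 (95% interval 0.12 to 0.76, edgeR adjusted p = 0.0644), just outside the threshold. Col25a1 had 6.74, 10.8 and 18.8 CPM in normoxia and 4.29, 7.84 and 13.9 in hyperoxia, and stood at -0.53 (-1.08 to 0.02, adjusted p = 0.198). Col13a1 was at -0.13 (-0.57 to 0.32) and Col22a1, a fibril-associated type of tissue junctions that stands among the others here, at -0.23 (-0.83 to 0.38).

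The 19 collagens left untested had at most 23 counts in any library, and 1 of them, Col9a2, had none. They include the cartilage genes Col2a1, Col9a1, Col9a2, Col9a3 and Col10a1, the anchoring fibril gene Col7a1 and the hemidesmosome gene Col17a1. When every gene with a count was fitted without the filter, 2 of them passed an adjusted p of 0.05 in edgeR. In that fit 13.4% of all 19718 genes passed it, 1447 of them higher and 1190 lower. Col17a1, with 3 to 17 counts in the normoxic and 0 to 4 in the hyperoxic libraries, was at -2.28 (adjusted p = 0.00917), and Col6a5, with 1 to 5 counts against 0 or 1, was at -3.25 (adjusted p = 0.0130). At such counts the fold changes depend on the small count the fit adds. Col27a1 was at -0.63 with an adjusted p of 0.0759 in the same fit.

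Making a collagen fibril takes enzymes that modify, fold, trim and cross-link its chains, and these were read from lists written for this comparison. Of 19 tested genes of procollagen modification and folding, 0 were higher and 2 lower, with a median log2 fold change of -0.20. P4ha1, a prolyl 4-hydroxylase subunit, fell from 63.3 ± 7.402 to 41.3 ± 8.12 CPM (SD, log2 fold change -0.62, edgeR adjusted p = 0.0077). The other call, Colgalt2, a collagen galactosyltransferase, was at 7.25 to 16.4 CPM in normoxia and 0 to 2.42 CPM in hyperoxia (-2.89 in the fit), so that it passed the filter on low counts through the normoxic libraries, and the list had 1 lower where at least 10 counts were asked of every library. Of 11 tested genes of procollagen processing and cross-linking, 5 were higher and 1 lower, with a median of 0.39, and 3 were higher without Normoxia 1, Normoxia 3 or Hyperoxia 4. Lox, the lysyl oxidase that starts cross-linking, rose from 27.0 ± 5.203 to 135.9 ± 61.3 CPM (2.33), and Sparc, a collagen-binding matricellular protein, from a median of 2330.0 to 3930 CPM (1.15), with Hyperoxia 1 far above the others at 12742 CPM. Pcolce2, an enhancer of procollagen C-proteinases, fell from 796 ± 118 to 223 ± 29.3 CPM (-1.83). Adamts2, Loxl1 and Loxl2 were the other members that were higher, and Adamts2 is the N-proteinase of types I to III.

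Small leucine-rich proteoglycans coat fibrils and regulate their spacing, and of 8 tested 0 were higher and 3 lower, with a median of -0.39. Prelp was at 153 ± 27.3 and 46.7 ± 16.7 CPM (log2 fold change -1.71), Ecm2 at 51.8 ± 8.05 and 20.9 ± 8.79 CPM (-1.33) and Ogn at 271 ± 54.5 and 123 ± 27.6 CPM (-1.14), without overlap between the groups in any of them. Of 10 tested collagen receptors and uptake genes, 1 was higher and 2 lower, with a median of -0.39, against 2 higher and 4 lower without Hyperoxia 1. Itgb1, the β1 integrin chain shared by the collagen-binding integrins, rose from 311 ± 46.7 to 661 ± 167 CPM (1.09). Antxr1 and Antxr2, cell surface receptors that bind collagens, fell from 64.3 ± 11.03 to 20.8 ± 10.2 CPM (-1.61) and from 128 ± 12.2 to 51.2 ± 19.1 CPM (-1.31). Of 5 tested collagenases and gelatinases, 2 were higher and 0 lower, with 0 higher among the libraries named B to M and 4 among those named O to S. They were the membrane-bound Mmp14 at 24.3 ± 3.48 and 43.6 ± 14.2 CPM (0.85) and Mmp8 at 1.64 to 4.18 CPM in normoxia and 3.75 to 16.2 CPM in hyperoxia (1.95), which owes its place among the tested genes to the hyperoxic libraries. The background for the counts of the main fit, with all libraries, is 11.8% of genes higher and 10.8% lower. Calls in either direction were 22.6% of all genes there, 28.5% without Hyperoxia 1, 8.80% in the B to M libraries and 21.3% in the O to S libraries. They were 18.8%, 18.8% and 19.4% without Normoxia 1, Normoxia 3 or Hyperoxia 4, and 27.7% with at least 10 counts in every library.

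**Figure D5:**
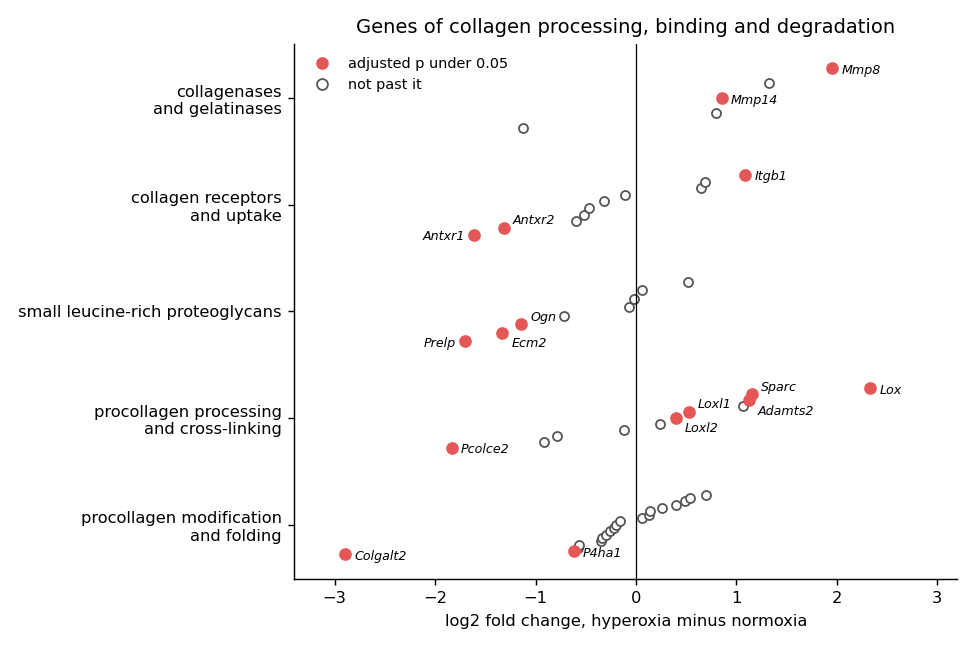
Log2 fold change (hyperoxia minus normoxia, horizontal axis) of every tested gene in 5 lists of collagen-related genes, with 1 point per gene. Red points passed an edgeR adjusted p of 0.05 and are named; Lox at 2.33 and Colgalt2 at -2.89 are the extremes.

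Markers of cell types in the lung were read beside the collagens, against the same background of 11.8% of genes higher and 10.8% lower. Of 8 smooth muscle and myofibroblast markers 3 were higher (Des, Acta2 and Cnn1) and 0 lower, and their summed level was 310 to 432 CPM in normoxia and 484 to 860 in hyperoxia, with 618 as the highest sum without Hyperoxia 1. Of 9 tested fibroblast markers 1 was higher, Pdgfra, and 4 were lower, Scube2, Inmt and Wnt2 among them along with Npnt, with sums of 3668 to 4505 and 2781 to 3605 CPM. Of 6 tested adventitial fibroblast markers 1 was higher, Igfbp4, and of 7 pericyte markers 1 was higher, Trpc6, and 1 lower, Cox4i2, with sums of 736 to 1113 against 791 to 1864 and of 176 to 267 against 114 to 277 CPM. Of 7 endothelial markers 1 was higher, Egfl7, and 2 lower, Erg and Tie1, with sums of 2513 to 4962 and 1981 to 5372 CPM, and of 5 tested mesothelial markers 3 were lower, Lrrn4, Upk1b and Gpm6a, with sums of 173 to 292 and 112 to 154 CPM. The proteoglycan gene Aspn stands in both its own list and that of smooth muscle.

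The epithelial and leukocyte lists were read in the same way. Of 6 alveolar type 2 markers 5 were lower, with sums of 12382 to 23028 CPM in normoxia and 3181 to 6846 in hyperoxia. Of 5 tested leukocyte markers 3 were lower, Ptprc, Cd79a and Lyz2, with sums of 2358 to 3972 and 369 to 1212 CPM (from 453 without Hyperoxia 1). In these leukocyte sums Lyz2 alone went from a mean of 2947 to 609 CPM, and Itgam and Marco did not pass the threshold. Of 6 alveolar type 1 markers 1 was higher, Akap5, and 1 lower, Rtkn2, with sums of 2093 to 2514 and 3118 to 4190 CPM, in which Akap5 alone went from a mean of 1194 to 2734 CPM. Of 4 airway markers 2 were lower, Scgb1a1 and Cyp2f2, with sums of 14458 to 53111 and 184 to 10041 CPM (from 3234 without Hyperoxia 1). In the airway sums Scgb1a1 alone went from a mean of 33862 to 4349 CPM. Scgb3a2 and Foxj1 did not pass the threshold, and Foxj1 had means of 53.3 CPM in normoxia and 52.5 CPM in hyperoxia. Among the 6 measured chondrocyte markers, Acan, Comp and Matn1 had no count in any library, while 2 were tested and 1, Sox9, was higher. Of 4 Schwann cell and 4 skeletal muscle markers 1 each was tested, and the skeletal muscle gene Ckm, lower in the fit, passed the filter on low counts through the normoxic libraries, as 2 of the 6 hyperoxic ones were above the floor. What part these shifts have in the collagen values was not tested.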

How the data were processed

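Lung RNA of 7 normoxic and 6 hyperoxic samples was sequenced with the Quant-seq 3′ kit. Reads were quantified by the authors with kallisto, run through BioJupies, and the deposited table holds whole-number counts per gene symbol, without normalization or filter. The submitters' processing notes name mm10 and limma 3.54.2, and the annotation and strand setting are not given in the sources used here. The authors also deposited log10 values, which are log10 of CPM plus 1, since they were recomputed from the counts to within 4.4e-16.

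Counts were scaled by TMM, filtered with filterByExpr, which left 12496 genes, and tested with edgeR 4.0.16 (glmQLFit, glmQLFTest) in R 4.3.3, with Benjamini-Hochberg adjustment over all of them and a threshold of 0.05. CPM values are TMM-scaled. The standard error of a log2 fold change is its size divided by the root of its F statistic, and 95% intervals assume a normal spread. The intervals are therefore somewhat narrower than the F test would give. Libraries of a group differed beyond sampling noise in all 36 pairs (chi-square per gene at least 3.81). Depth is given in the report.

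The genes and lists were chosen with earlier results of these data known. Spreads over libraries are given for genes past the threshold, the 8 of highest mean CPM and the 4 nearest to it on the other side. From each list, up to 3 genes past it with a mean of at least 5 CPM are described, by size of change, and any further ones are only named. Alternatives were DESeq2 1.42.0, limma-voom and limma 3.58.1 on log2(CPM + 1), library size only, other filters, a replicate block, the letter in the library name, each library left out, and the study's added log2 threshold of 1.5. Gene positions are from GENCODE M21 (GRCm38), matched by symbol, and promoter windows from RefSeq.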

Additional observations from a re-analysis of the deposited data

Results flagged for a closer look

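Of 70 groups of values examined for a library far from the others by Dixon's ratio, 5 passed its 95% limit, and chance alone passes about 1 in 20. In 3 of the 5 the library was Hyperoxia 1. Its Col5a1 level was 96.5 CPM, with the nearest hyperoxic library at 65.3 (ratio 0.676). Its Col6a3 per Col6a2 was 0.411, with the next at 0.941 (ratio 0.652). Its mean correlation with the other libraries was 0.788, with the next at 0.891 (ratio 0.763). Hyperoxia 3 stood out in Col22a1, at 14.9 CPM against 7.502 in the nearest (ratio 0.665). Normoxia 5 was the shallowest normoxic library, with 1607111 counts against 2696280 in the next (ratio 0.612).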

How the results depend on the processing

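Col18a1, Col5a2 and Col8a1 stayed higher and past the threshold in every fit run, except that only Col18a1 passed the added log2 threshold of 1.5. The main count of 5 higher and 2 lower collagens became 3 higher and 1 lower with a replicate block, 3 and 0 in the libraries named B to M, 6 and 3 in those named O to S (20 tested there, with Col17a1 among the lower), 1 and 0 with the log2 threshold of 1.5, and 1 lower where at least 10 counts were asked of every library, a filter that Col26a1 did not pass. Leaving out single libraries gave 5 to 6 higher and 1 to 3 lower, with 3 lower without Hyperoxia 1 and 1 without any other library. In the same block, Col3a1 was at 0.61 (adjusted p = 0.0526), Col5a1 at 0.71 (0.0848) and Col27a1 at -0.70 (0.101). Replicate numbers do not pair the samples, since correlations of deviations ran from -0.332 to 0.277, only 1 of 6 above 0.1, and 0 of 6 hyperoxic libraries were closest to their own number. With the block, calls over all genes fell from 1473 higher and 1346 lower to 718 and 626. They were 679 and 441 in the B to M libraries, 1438 and 1356 in the O to S libraries and 194 and 294 with the log2 threshold of 1.5. Col23a1 passed with DESeq2 (adjusted p = 0.0354) and without Normoxia 4, Hyperoxia 2 or Hyperoxia 3. The median of the collagens was 0.25 with at least 10 counts in every library and 0.31 in the O to S libraries, but -0.0012 in the B to M libraries, 0.035 with limma on log2(CPM + 1) and 0.049 with library size only. Limma on log2(CPM + 1) moved the median of all genes from -0.03 to -0.16, and the share of higher calls from 52.3% to 38.8%, against 42.7% with library size only.

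Genes far from the threshold changed sign in some fits. In the O to S libraries Col13a1 was at 0.083, Col16a1 at 0.44 and Col6a2 at 0.15. In the B to M libraries Col1a2 was at -0.0012, Col22a1 at 0.24 and Col6a1 at -0.17. Leaving out single libraries took Col13a1 from -0.28 to 0.011, and it was above 0 only without Hyperoxia 1. Col22a1, at -0.23 in the main fit, was at -0.52 without Hyperoxia 3 and at -0.094 without Hyperoxia 1. The cause of these shifts was not tested.

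In the lists, modification and folding ran from 0 to 1 higher and 1 to 3 lower, processing and cross-linking from 1 to 6 higher (2 with the block) and 1 to 2 lower, proteoglycans from 0 to 1 higher and 1 to 3 lower, receptors from 0 to 2 higher and 1 to 4 lower, and collagenases and gelatinases from 0 (B to M) to 4 (O to S) higher and 0 to 1 lower, with 1 higher under limma on log2(CPM + 1), the block, the filter of 10 counts and the log2 threshold of 1.5. Processing and cross-linking had 3 higher without Normoxia 1, Normoxia 3 or Hyperoxia 4, and 2 lower without Hyperoxia 4. Receptors had 2 higher and 4 lower without Hyperoxia 1. Without Hyperoxia 1, modification and proteoglycans each had 1 higher and collagenases 1 lower, as had modification without Normoxia 5 or Hyperoxia 3 and collagenases without Normoxia 6 or Hyperoxia 4. At this depth a count of 3 stands for up to 1.87 CPM, and the 19 collagens below the filter were not tested.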
